A study of Mus musculus with 18 samples.

Results

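Replication-dependent histone genes were followed in sorted mouse islet cells. These genes were taken as those whose GRCm38 symbol (GENCODE M21) begins with Hist1h, Hist2h, Hist3h or Hist4h and whose expected counts sum to at least 20 over the 18 libraries. Of 70 symbols, 66 met this limit, out of 55487 genes listed, and 57 of the 66 passed the low-count filter and could be tested. Just inside the limit were Hist1h2ao with 20.32 and Hist1h2ah with 24.29 counts. Just outside it were Hist1h2al with 4.34 counts, the testis histone gene Hist1h2aa with 1 count, and Hist1h2aj and the testis histone gene Hist1h2ba with 0 counts. The 66 genes comprised 6 linker histone H1, 17 H2A, 18 H2B, 12 H3 and 13 H4 genes. They lie in 4 clusters, with 52 genes in Hist1 on chromosome 13, 10 in Hist2 on chromosome 3, 3 in Hist3 on chromosome 11 and 1 in Hist4 on chromosome 6. One of them, Hist3h2bb-ps, is annotated as a processed pseudogene.

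Islets of 12-week-old male C57BL/6 mice (C57BL/6JRj in the study's methods) were cultured whole for 20 h with 5 ng/mL IFNγ or without it, then dissociated and sorted as Epcam-positive cells without CD45, TER119 or CD31. Alpha cells were CD24-low and CD71-negative, beta cells carried CD71 on a CD24-low background and delta cells were CD24-high, so that CD71 (the transferrin receptor) and CD24 set the gates. Each of the 6 groups had 3 libraries: IFNγ-treated delta, alpha and beta cells and their untreated controls. Libraries were made from rRNA-depleted total RNA with random primers and without poly(A) selection.

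Histone proteins package DNA: H2A, H2B, H3 and H4 form the nucleosome core and H1 binds the linker DNA. Most of their mRNA is made in S phase, and a typical replication-dependent histone mRNA ends just after a short stem-loop instead of a poly(A) tail. SLBP binds that stem-loop and the U7 snRNP directs the cut after it. Some histone genes also give polyadenylated transcripts in cells that do not divide, and most adult islet cells are not dividing.

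The stem-loop was searched in the longest GENCODE M21 transcript of each gene, since it is the element that defines this class of mRNA. A 16-base stem-loop was found in 45 of the 66 genes, against 0.242% of 21884 other protein-coding genes. It had 8 forms among these 45 genes. The examples below were chosen because the results below turn on them or because they show a form, and are printed 5′ to 3′ with the stem-loop in capitals and its flanks in lower case.
Hist1h1e: caaaGGCTCTTTTCAGAGCCaccca
Hist1h1c: aaaaGGCTCTTTTCAGAGCCaccac
Hist1h1d: aaacGGCTCTTTTCAGAGCCaccca
Hist2h2aa1: aaaaGGCTCTTTTCAGAGCCaccca
Hist2h2ac: aaaaGGCTCTTTTTAGAGCCaccaa
Hist1h2be: caaaGGCTCTTTTCAGAGCCaccca
Hist3h2ba: caaaGGCTCTTTTCAGAGCCacctt
Hist1h3c: aaaaGGCTCTTTTAAGAGCCaccta
Hist1h4h: caaaGGCCCTTTTCAGGGCCgccca
Hist2h4: taacGGCCCTTTTTAGGGCCaacca
The form of Hist1h1e, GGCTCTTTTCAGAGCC, was shared by 25 genes: 3 H1, 10 H2A, 7 H2B and 5 H3 genes, and no H4 gene. The form of Hist1h4h, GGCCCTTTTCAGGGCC, was found in 7 genes, all H4. The form of Hist2h4, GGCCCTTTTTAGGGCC, was shared only with Hist1h4i, and that of Hist2h2ac was found in that gene alone. The form of Hist1h3c was found in 6 genes, among them the testis linker histone gene Hist1h1t.

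What follows the stem-loop differed between these genes. In 22 genes the annotated transcript ended within 100 bases of it, as in Hist2h2aa1 (35 bases after), Hist1h4h (46) and Hist2h2ac (57). In 23 genes the transcript ran on, as in Hist1h1c (840 bases), Hist1h1e (1153), Hist2h4 (1257), Hist1h2be (1861) and Hist1h1d (4884). The other 21 had no stem-loop in their longest transcript. Their median annotated length was 411 bases, against 483.5 bases for the genes that end at the stem-loop. This group therefore describes the annotated model, which may lack a 3′ end, and not a measured RNA end. A polyadenylation signal (AATAAA or ATTAAA in the last 50 bases) was present in 1 of the 22, 12 of the 23 and 3 of the 21, so in 16 of the 66, against 68.9% of the other protein-coding genes.

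Promoters were read from RefSeq (GRCm38.p6, 250 bases before to 50 after the start site), which had 60 of the 66 genes. Motifs were searched on both strands, and overlap between motifs was allowed. CCAAT was found in 51 of the 60 (85.0%), against 37.9% of 27025 promoters of all genes. It was present in every H1, H2A, H2B and H3 promoter that was matched, and in 3 of 12 H4 promoters. TATAAA was found in 33 (55.0%, against 14.2% of all). The octamer ATTTGCAT was found in 11 (18.3%, against 1.75%), in 6 of 17 H2A and 5 of 15 H2B promoters and in no H1, H3 or H4 promoter. The interferon-γ-activated-site pattern TTCNNNGAA was found in 2 (3.33%, against 8.47%). Hist3h2ba is printed because it differed most clearly between cell types, and Hist1h2ac because its promoter faces that of Hist1h2bc, so that both genes of a pair can be compared. The Hist3h2ba window is chr11:58948661-58948960 on the plus strand and the Hist1h2ac window is chr13:23683910-23684209 on the minus strand, with the first 3 of these motifs, on either strand, in capitals.
Hist3h2ba: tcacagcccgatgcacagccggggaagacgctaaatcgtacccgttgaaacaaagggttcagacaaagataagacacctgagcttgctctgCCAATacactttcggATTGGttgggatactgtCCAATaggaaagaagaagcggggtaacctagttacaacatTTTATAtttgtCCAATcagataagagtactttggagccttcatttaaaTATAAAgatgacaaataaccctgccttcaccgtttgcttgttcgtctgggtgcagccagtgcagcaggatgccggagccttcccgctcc
Hist1h2ac: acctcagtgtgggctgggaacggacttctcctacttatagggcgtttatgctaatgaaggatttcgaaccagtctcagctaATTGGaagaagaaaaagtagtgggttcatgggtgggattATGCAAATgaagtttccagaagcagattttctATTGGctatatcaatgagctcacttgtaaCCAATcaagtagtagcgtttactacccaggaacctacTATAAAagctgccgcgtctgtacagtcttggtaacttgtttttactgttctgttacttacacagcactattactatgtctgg
Start sites of Hist1h2ac and Hist1h2bc lay 251 bases apart. In all, 12 pairs of genes faced away from each other at 173 to 302 bases between start sites. Each of these 12 pairs joined an H2A and an H2B gene.

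Library totals ran from 6128845 to 11531734 expected counts. The labelled cell types carried their own hormone genes: Sst had 9561 to 35919 CPM (counts scaled to library size by TMM) in delta cells, Gcg 74633 to 117436 CPM in alpha cells and Ins2 17515 to 30178 CPM in beta cells. Summed CPM was at most 11.3 for 7 endothelial and 4.97 for 10 immune marker genes. Other lists were higher. For 6 duct marker genes it was 776 to 1422 CPM in treated and 839 to 1298 CPM in control alpha cells, and at most 628 CPM in beta and 416 CPM in delta cells. For 3 polypeptide and ghrelin cell genes it reached 4532 CPM in alpha, 733 CPM in beta and 8235 CPM in delta cells. For 8 beta cell marker genes it reached 11661 CPM in control alpha and 7275 CPM in control delta cells, against 53817 to 60475 CPM in control beta cells. Of the treatment, the interferon-responsive transcription factor Irf1 had 129 to 237 CPM in treated libraries, against 32.9 to 43.9 CPM in controls. All 9 interferon reference genes rose in each cell type. Summed CPM of 12 acinar marker genes was 443 to 1656 in treated and 1082 to 2490 in control delta cells, 2.5 to 14.9 in treated and 9.90 to 43.0 in control alpha cells, and 2.02 to 152 in treated and 0.456 to 2091 in control beta cells. The file of beta control library 3, which has the value of 2091, is named for the enzyme papain, where the other file names carry sort markers. A GC balance was taken per library as the median log2 deviation of AT-rich genes minus that of GC-rich genes. It was 0.970, -0.564 and 0.873 in treated and -0.472, -0.686 and -0.762 in control alpha cells, 0.762, 0.335 and 0.849 in treated and -0.122, -0.0810 and 0.892 in control delta cells, and -0.651 to -0.332 in treated and -0.687 to 0.246 in control beta cells. Treated alpha library 2, delta control library 3 and beta control library 3 therefore stood apart from their groups. Histone genes have a median GC content of 57.5%, against 48.6% for all genes of similar depth. The file names carry 9 dates, and 5 of these dates hold 1 library each. Alpha and beta cells of both treatments were present on 2 of the 9 dates. Treated and control delta cells came from different dates, and treated delta and treated beta cells shared none. Date and group therefore cannot be told apart within either pair. With date as a term in the fit, a library alone on its date adds nothing to a comparison. A call lost in that fit may therefore reflect fewer usable libraries. Nothing in the labels says that the 3 libraries of a group came from separate mice, so p-values measure the spread between these libraries.

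Histone genes took 0.0502 to 0.141% of the counts of a library, and their summed TPM was 274.5 to 865. Among them, levels were uneven. Hist2h2aa1, an H2A gene, had the highest mean TPM at 84.3 (26.4 to 155 over the 18 libraries), followed by the linker histone genes Hist1h1c at 43.7 (17 to 71.8) and Hist1h1e at 38.1 (22.3 to 64.7), the H2B gene Hist1h2bc at 37.9 (19.5 to 56.1) and the H4 gene Hist1h4h at 34.0 (11.1 to 61.7). Their ranges overlap, so the order of these 5 is not fixed by the libraries. Then came the H4 gene Hist1h4m at 25.8 TPM, the H3 gene Hist1h3e at 24.0, Hist1h2bg and Hist2h2bb (both H2B) at 20.6 and 20.3, and Hist1h4d (H4) at 19.9. Hist2h3b (H3), Hist2h2ac (H2A), Hist1h4k (H4), Hist1h3i (H3) and Hist1h4n (H4) closed the top 15 at 18.8, 17.4, 16.7, 15.8 and 12.8 TPM. These 15 held 69.9% of the summed mean TPM.

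**Figure D1:**
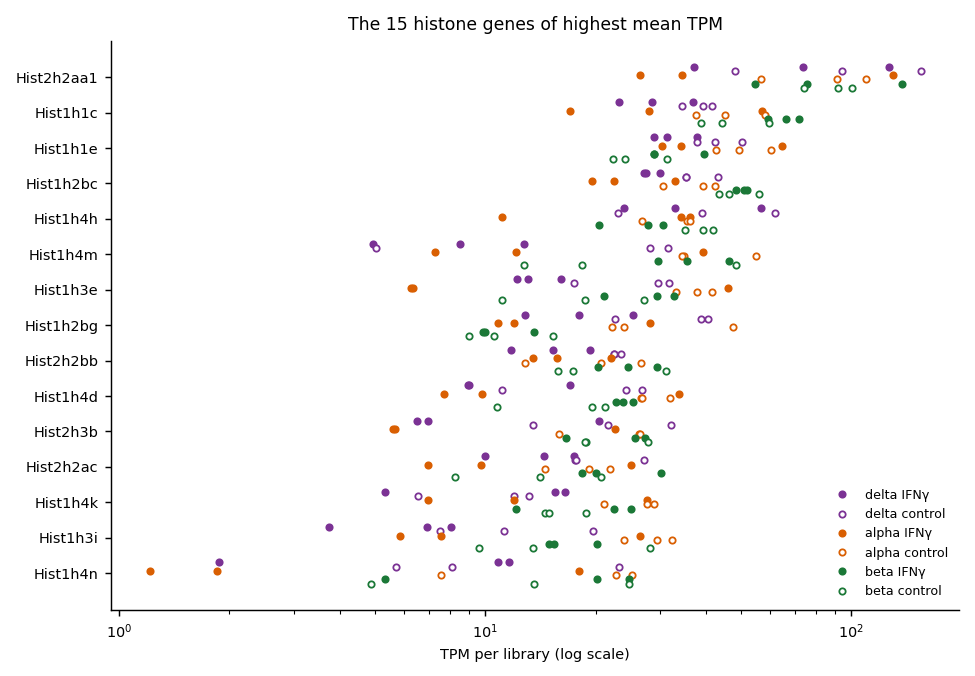
TPM (log axis) of the 15 histone genes of highest mean TPM, with 1 point per library, filled for IFNγ and open for control, coloured by cell type. Hist2h2aa1 sits between 26.4 and 155 TPM, and the libraries of all 6 groups intermix in most rows.

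By class, H1 genes held 13.1 to 17.4% of histone TPM in the 6 groups, H2A 21.6 to 26.8%, H2B 19 to 22.7%, H3 11.6 to 19.8% and H4 22.9 to 25.1%. In CPM, which is not divided by transcript length, the H1 genes took 34.2 to 43.3%. TPM rests on annotated lengths, so these shares and the ranking may change where RNA ends differ from the annotated models. Genes whose annotated transcript runs past the stem-loop held 65.0% of histone counts but 35.3% of the TPM, whereas those that end at it held 18.8% of the counts and 40.1% of the TPM.

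Copies limit what a count of 1 histone gene means. At least 50% of the 75-base windows of a transcript occur in another histone gene for 27 of the 66 genes, and 37 fall into 8 groups of near-identical genes. RSEM splits such reads, and 60 genes had a count that was not whole (beyond 0.001) in at least 1 library. Reads of Hist1h1e and Hist1h2be can also mix, since the annotated Hist1h2be gene (chr13:23583670-23621124) runs into Hist1h1e (chr13:23620629-23622558) on the same strand. In all, 23 of the 66 genes are overlapped by another annotated gene, 7 of them on the same strand, among them Hist3h2a by Trim17. The kit marks strand, but no source used here says whether the counting made use of it.

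The cell types were compared first without IFNγ. Of the 57 tested genes, 3 were higher and 1 was lower in control alpha than in control beta cells, where 9.56% of all 17338 genes were higher and 10.1% lower. Between control delta and control beta cells 5 were higher (11.4% of all genes) and 3 lower (9.11%). Between control delta and control alpha cells 5 were higher (10.9%) and 2 lower (8.77%). Each of these shares of histone genes (1.75 to 8.77%) is below that of all genes, and the median log2 fold change of the histone genes was -0.10, -0.09 and -0.05 in turn, against 0.04, 0.05 and 0.03 over all genes. In bulk libraries, less RNA per cell cannot be told apart from fewer cells that express a gene. With GC offsets the 3 comparisons gave 4 higher and 2 lower, 6 and 6, and 8 and 1. No share of all genes under GC offsets is set beside these counts. These comparisons share control libraries. Without alpha control library 3 the alpha against beta comparison gave 2 calls, and without delta control library 3 the delta against beta comparison gave 5. All tests are edgeR quasi-likelihood tests with Benjamini-Hochberg adjustment over all genes, called at 0.05.

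The clearest difference was in Hist3h2ba, an H2B gene of the small Hist3 cluster (chr11:58948920-58949533, 169 bases of transcript after its stem-loop and a polyadenylation signal). It had 15.4, 14.2 and 11.3 CPM in control alpha cells, 6.87, 5.51 and 5.4 CPM in control delta cells and 1.42, 2.11 and 0.761 CPM in control beta cells. The 3 groups did not overlap. The log2 fold change (log2FC) was 3.21 (SE 0.48, adjusted p = 8.22e-05) for alpha over beta cells, which is 9.27-fold. For delta over beta cells it was 2.02 (SE 0.47, adjusted p = 0.00441), and for delta over alpha cells -1.20 (adjusted p = 0.0511).
Treated cells gave separate libraries for the same comparison. Hist3h2ba had 2.51, 2.29 and 2.05 CPM in treated delta cells, 5.26, 15.4 and 4.83 CPM in treated alpha cells and 0.355, 1.30 and 0.932 CPM in treated beta cells. Treated alpha cells were again above treated beta cells in each library, with a log2FC of 3.22 (SE 0.50, adjusted p = 0.000113). The alpha over beta calls were kept under each alternative tried, in 29 for control and 28 for treated cells. On the 2 shared dates alone, the log2 difference was 3.05 and 2.49 in control and 4.22 and 1.56 in treated cells. The delta over beta call of controls was lost with date as a term (adjusted p = 0.0947), and treated delta cells were lower than treated alpha cells (log2FC -1.90, adjusted p = 0.00532), a call lost without treated alpha library 2 (adjusted p = 0.0572) and with date as a term (adjusted p = 0.472).

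Hist1h2bc, the most abundant H2B gene (chr13:23684199-23692908), differed the other way. Its level was 55.1, 70.9 and 61.2 CPM in control alpha cells, against 95.6, 99.3 and 91.0 CPM in control beta cells. Treated cells showed the same order, with 43.3, 49.0 and 51.2 CPM in alpha cells, against 93.6, 95.4 and 81.0 CPM in beta cells. Neither pair of groups overlapped. Its log2FC was -0.61 (SE 0.18, adjusted p = 0.0198) in control cells and -0.91 (SE 0.18, adjusted p = 0.000908) in treated cells. The control call was lost without alpha control library 1 (adjusted p = 0.0997), alpha control library 3 (0.0732) or beta control library 2 (0.0686) and without the low-count filter (0.0576), and the treated call was lost in none of 28 alternatives. On the 2 shared dates the log2 difference was -0.79 and -0.48 in control cells, and -0.93 and -0.89 in treated cells. Delta cells were at 65.3, 45.9 and 77.6 CPM with IFNγ and 74.3, 75.5 and 71.7 CPM without it. Treated delta cells were below treated beta cells without overlap (log2FC -0.52, adjusted p = 0.0293), a call lost in 6 of 28 alternatives, namely without treated beta library 1 (0.0876) or 2 (0.0949) or treated delta library 1 (0.0613) or 2 (0.143), without the low-count filter (0.112) and with date as a term (0.611).

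Hist1h2ac, the H2A gene that faces Hist1h2bc, was called in other comparisons. It had 17, 18.7 and 21.8 CPM in control delta cells, 5.52, 6.96 and 7.27 CPM in control alpha cells and 4.42, 8.90 and 4.26 CPM in control beta cells. Control delta cells were above each library of the other types. Its log2FC was 1.54 (SE 0.38, adjusted p = 0.00692) over alpha cells, kept in each of 27 alternatives, and 1.70 (SE 0.38, adjusted p = 0.00306) over beta cells, which without beta control library 3 and delta control library 3 became 1.41 (adjusted p = 0.0516). With IFNγ it had 10.6, 12.4 and 4.26 CPM in delta cells, 4.48, 9.33 and 5.03 CPM in alpha cells and 5.51, 5.69 and 7.11 CPM in beta cells, which overlap, and no treated comparison of Hist1h2ac was called.

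Hist2h4, an H4 gene on chromosome 3 (chr3:96261682-96263311) with a polyadenylation signal, was highest in delta cells and lowest in alpha cells. It shares no 75-base window with another histone gene and its counts were whole in each library. It had 39.5, 51.3 and 30.7 CPM in control delta cells, against 6.10, 12 and 11.2 CPM in control alpha cells, and control beta cells had 21.2, 20.7 and 10.5 CPM. With IFNγ it had 26.9, 35 and 17.2 CPM in delta cells, 10.3, 10.1 and 5.42 CPM in alpha cells and 21.5, 17.3 and 34.9 CPM in beta cells. Delta and alpha cells did not overlap under either condition, whereas treated delta and beta cells did. The delta over alpha log2FC was 2.04 (SE 0.37, adjusted p = 0.00055), or 4.12-fold, in control cells and 1.61 (SE 0.36, adjusted p = 0.00402) in treated cells. The control call was kept in each of 28 alternatives, and the treated call was lost with date as a term (adjusted p = 0.0988). Control delta cells were above control beta cells as well (log2FC 1.21, adjusted p = 0.0207), a call lost without beta control library 3 (0.094) or delta control library 2 (0.0919), without beta control library 3 and delta control library 3 (0.073) and with date as a term (0.327). Treated alpha cells were lower than treated beta cells (log2FC -1.51, SE 0.37, adjusted p = 0.00492, kept in each of 28 alternatives).

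The other genes called between delta and alpha cells under both conditions were Hist1h2be (H2B) and Hist3h2a (H2A). Hist1h2be had 43.6, 36 and 52.3 CPM in control delta cells, against 14.7, 20.7 and 16.5 CPM in control alpha cells (log2FC 1.35, SE 0.26, adjusted p = 0.00118, kept in each of 28 alternatives). In treated cells it had 38.6, 40.1 and 22.9 CPM in delta cells, against 19.1, 15.3 and 19.8 CPM in alpha cells (0.90, SE 0.26, adjusted p = 0.0222). The groups did not overlap in either pair, but the treated call of Hist1h2be was lost without treated alpha library 2 (adjusted p = 0.0841), treated delta library 1 (0.0901) or treated delta library 2 (0.0963) and with date as a term (0.0641). Its neighbour Hist1h1e, whose reads could mix with it, had a log2FC of 0.06 (adjusted p = 0.861) in control cells.
Hist3h2a had 32.2, 25.4 and 21.2 CPM in control delta cells, against 14.1, 16.9 and 8.87 CPM in control alpha cells (log2FC 0.99, SE 0.24, adjusted p = 0.00743). Without alpha control library 3 its adjusted p was 0.0511, and with date as a term 0.214. In treated cells the log2 fold change of Hist3h2a was 0.78 (adjusted p = 0.0334), which was lost without any of 4 libraries: treated alpha library 1 (0.097), treated alpha library 3 (0.103), treated delta library 1 (0.159) or treated delta library 2 (0.0878). It was also lost with date as a term (0.0518) and without the low-count filter (0.0744).

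Hist1h2bg, an H2B gene with 155 bases of transcript after its stem-loop, was lowest in beta cells among the controls. It had 36.5, 29.4 and 20.1 CPM in control delta cells, 18.7, 20.2 and 30.9 CPM in control alpha cells and 9.40, 12.5 and 8.98 CPM in control beta cells. Each control beta library was below those of both other types. Its log2FC was 1.47 (SE 0.27, adjusted p = 0.000609) for delta over beta cells and 1.17 (SE 0.27, adjusted p = 0.00469) for alpha over beta cells. With date as a term the delta value was 0.90 (adjusted p = 0.0779), and on the 2 shared dates with a date block the alpha value was 0.81 (adjusted p = 0.0873). Treated delta cells, at 17.1, 18.3 and 16.6 CPM, were also above treated beta cells, at 8.70, 8.53 and 10.4 CPM (log2FC 0.91, SE 0.28, adjusted p = 0.0155). This treated call was lost without treated beta library 1 (adjusted p = 0.0541) or treated beta library 2 (0.0581) and with date as a term (0.0559). Treated alpha cells were not called above treated beta cells, though each treated alpha library was above each treated beta library in CPM. As TPM these groups overlapped, at 10.86, 28.2 and 11.97 TPM in treated alpha and 9.97, 9.84 and 13.55 TPM in treated beta cells. Of the windows of Hist1h2bg, 47.4% occur in other histone genes.

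Hist1h1e, the linker histone gene of most counts, had 163, 120 and 184 CPM in control delta cells, 135, 157 and 155 CPM in control alpha cells and 92.9, 98.8 and 79.7 CPM in control beta cells. Control beta cells did not overlap the other types. Its log2FC was 0.78 (SE 0.21, adjusted p = 0.0103) for delta over beta cells and 0.72 (SE 0.21, adjusted p = 0.0184) for alpha over beta cells. Without both beta control library 3 and delta control library 3 these were 0.56 (adjusted p = 0.141) and 0.63 (adjusted p = 0.0703), so both calls rest in part on libraries that stood apart. The alpha over beta call was also lost without alpha control library 2 (adjusted p = 0.0559), alpha control library 3 (0.0657) or beta control library 3 (0.0874) and on the 2 shared dates with a date block (0.0922), and the delta over beta call without delta control library 3 (0.0512).

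**Figure D2:**
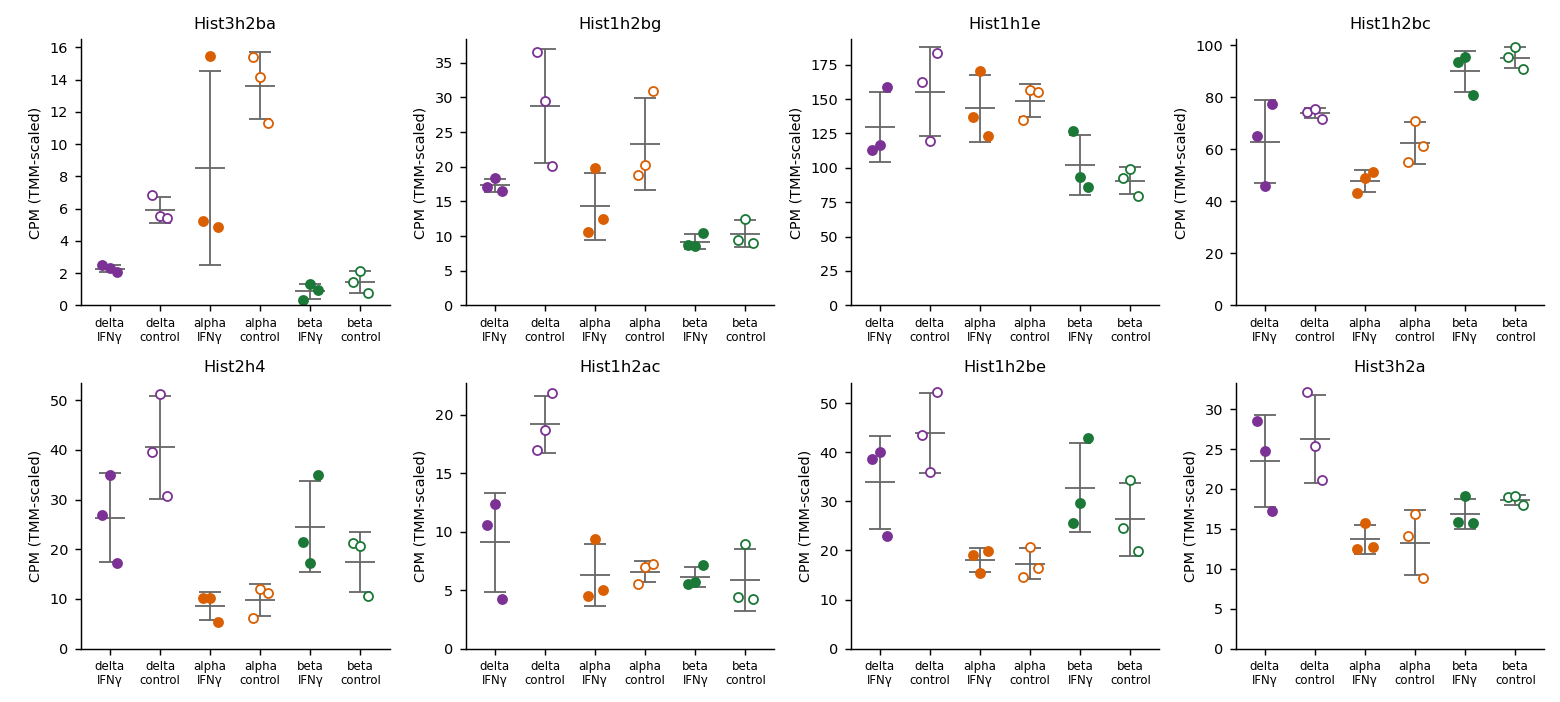
CPM per library of 8 histone genes that differed between cell types, with 1 point per library (filled, IFNγ; open, control), the mean (line) and SD (bar) over 3 libraries. Hist3h2ba is highest in alpha cells (4.83 to 15.4 CPM) and lowest in beta cells (0.355 to 2.11 CPM), and Hist2h4 is highest in control delta cells (30.7 to 51.3 CPM).

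Other genes were called between control delta and another control type with larger uncertainty. Hist1h3c (H3) had 0.859, 0.216 and 0.415 CPM in control delta cells, against 3.99, 12.4 and 1.37 CPM in control beta cells (log2FC -3.53, SE 1.05, adjusted p = 0.0217). Hist1h4k (H4) was lower in control delta than in control alpha cells (-1.54, adjusted p = 0.0275), a call lost with GC offsets (-0.85, adjusted p = 0.131) and without alpha control library 1 (0.0534) or 2 (0.0965) or delta control library 2 (0.0667) or 3 (0.115). Hist1h3d (H3) was higher in control delta than in control alpha cells (1.40, adjusted p = 0.0317), which was lost without alpha control library 1 (0.12) or 3 (0.111) or delta control library 1 (0.115) or 2 (0.0525). The call of Hist1h3c was lost without beta control library 2 (adjusted p = 0.169), which holds the value of 12.4 CPM, and without delta control library 2 (0.0856) or 3 (0.0675).

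With IFNγ on both sides, most called histone genes were lower in alpha or delta than in beta cells. Between treated alpha and treated beta cells 2 were higher and 12 lower of 57 (21.1%), where 13.8% of all genes were higher and 13.3% lower. Between treated delta and treated beta cells 2 were higher and 16 lower (28.1%), where 18.4% of all genes were higher and 18% lower. The median log2 fold change of the histone genes was -0.91 in both, against 0.03 and 0.02 over all genes. The GC balance differed between these groups too, at -0.651 to -0.332 in treated beta cells, below each treated delta library and below treated alpha libraries 1 and 3. With GC offsets the medians were -0.62 for alpha and -0.54 for delta over beta cells, with 4 higher and 10 lower and 5 higher and 12 lower, and the part of GC content in these values was not tested. Between treated delta and treated alpha cells 4 were higher (8.87% of all genes) and 3 lower (7.13%), with a median of 0.03. Both comparisons with beta cells use the same treated beta libraries. The counts rest on single libraries. Counts with GC offsets, or with a library left out, have no share of all genes beside them and show only how stable the calls are. Without treated alpha library 2 the alpha against beta comparison gave 2 higher and 24 lower, and without treated alpha library 1 it gave 1 and 7. Without treated beta library 1 the delta against beta comparison gave 0 and 10, and without treated delta library 1 it gave 1 and 9. With date as a term the delta against beta comparison gave 0 calls. These 2 groups share no date, so that fit compares them only through dates that each shares with other groups. Without treated alpha library 2 or 3, or treated delta library 1 or 2, the delta against alpha comparison gave 4, 4, 3 and 3 calls in place of 7.

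Single calls of Hist1h2bh, Hist1h2bq, Hist1h2br (all H2B) and Hist1h4i (H4) between treated alpha and treated beta cells were kept under each alternative tried. Hist1h2bh had 0.172, 0.401 and 0.0967 CPM in treated alpha cells, against 1.60, 2.84 and 3.26 CPM in treated beta cells (log2FC -3.47, SE 0.75, adjusted p = 0.00208). Hist1h4i had 0.431, 1.30 and 0.774 CPM in treated alpha cells, against 4.80, 3.79 and 8.28 CPM in treated beta cells (-2.75, SE 0.67, adjusted p = 0.00517). Neither pair overlapped.
Hist1h2bq had 0.517, 0.702 and 0.387 CPM in treated alpha cells, against 3.55, 4.74 and 5.48 CPM in treated beta cells (-3.07, SE 0.82, adjusted p = 0.00993). In treated delta cells it had 0.278, 0.764 and 0 CPM (-3.79 against treated beta cells, SE 0.90, adjusted p = 0.00322), a call lost with date as a term (adjusted p = 0.185).
H3 genes were called between treated delta and treated beta cells as well, with less stable values. Hist1h3c had 0, 1.53 and 1.07 CPM in treated delta cells, against 2.84, 8.30 and 5.59 CPM in treated beta cells (log2FC -2.64, adjusted p = 0.0446, lost in 9 of 28 alternatives). Hist1h3h had 0.696, 0 and 0.819 CPM in treated delta cells, 0.431, 17.2 and 2.61 CPM in treated alpha cells and 6.40, 4.27 and 5.25 CPM in treated beta cells. Treated alpha library 2 was high and library 1 low for this gene, so alpha and delta cells overlapped. Its log2FC was -3.28 (adjusted p = 0.0166) for delta over beta and -3.63 (adjusted p = 0.0156) for delta over alpha cells, and the second value was -1.47 (adjusted p = 0.301) without treated alpha library 2. The pseudogene Hist3h2bb-ps was higher in treated delta cells, at 1.67, 1.78 and 0.246 CPM, against 0.355, 0.119 and 0.233 CPM in treated beta cells, which overlap (log2FC 2.34, adjusted p = 0.0483, lost in 19 of 28 alternatives).

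Hist1h2bq and Hist1h2br belong to a group of 6 near-identical H2B genes (with Hist1h2bj, Hist1h2bk, Hist1h2bl and Hist1h2bn), so their counts were also summed before the fit. The sum was 3.62, 7.64 and 8.19 CPM in treated delta cells, 5.34, 6.32 and 4.06 CPM in treated alpha cells and 18.1, 22.5 and 22.4 CPM in treated beta cells. Each treated beta library was above those of both other types. Its log2FC was -2.0 (SE 0.34, adjusted p = 0.000263) for alpha and -1.68 (SE 0.34, adjusted p = 0.000876) for delta over beta cells. Without IFNγ the sum was 14.6, 10.5 and 7.88 CPM in delta cells, 8.57, 13.5 and 9.83 CPM in alpha cells and 15.5, 25.2 and 12 CPM in beta cells, and neither comparison passed (-0.73, adjusted p = 0.135, for alpha and -0.68, adjusted p = 0.159, for delta over beta cells). Between treated delta and treated beta cells 3 other near-identical groups were lower when summed: Hist2h3b with Hist2h3c1 and Hist2h3c2 (-1.26, adjusted p = 0.00307), Hist1h4m with Hist1h4n (-1.67, adjusted p = 0.0246), and Hist1h3b with Hist1h3d, Hist1h3g, Hist1h3h and Hist1h3i (-1.42, adjusted p = 0.0368).

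Of the abundant linker histone genes, Hist1h1c was lower in both treated alpha and treated delta cells, Hist1h1d in treated alpha cells, and Hist1h1e in neither. Hist1h1c had 71.7, 89.4 and 114 CPM in treated delta cells, 53.6, 119 and 89.8 CPM in treated alpha cells and 184, 153 and 156 CPM in treated beta cells, with no overlap between beta cells and the others. The log2FC of Hist1h1c was -0.84 (adjusted p = 0.0168) for delta and -0.91 (adjusted p = 0.0144) for alpha over beta cells. With GC offsets the delta value was -0.44 (adjusted p = 0.108) and with date as a term -0.31 (adjusted p = 0.709), and with GC and length offsets the alpha value was -0.55 (adjusted p = 0.0511). Without treated beta library 1 the adjusted p was 0.0646 for delta and 0.0596 for alpha cells, without treated delta library 1 it was 0.0849, and without treated alpha library 1 it was 0.0884.
Hist1h1d had 95.2, 81.7 and 71.0 CPM in treated delta cells, 44.4, 55.3 and 40.5 CPM in treated alpha cells and 79.9, 61.0 and 112 CPM in treated beta cells. Treated alpha cells were below both other types in each library (log2FC -0.85, adjusted p = 0.0138, for alpha over beta cells). That call was lost without treated alpha library 1 (adjusted p = 0.056), treated alpha library 3 (0.0616) or treated beta library 3 (0.0828) and with date as a term (0.0832). Hist1h1e had 113, 117 and 159 CPM in treated delta cells, 137, 170 and 123 CPM in treated alpha cells and 127, 93.6 and 86.1 CPM in treated beta cells, which overlap (log2FC 0.49, adjusted p = 0.0844, for alpha and 0.34, adjusted p = 0.196, for delta over beta cells). Of the rarer linker genes, Hist1h1b had 1.35 to 2.81 CPM in treated alpha and 3.02 to 5.10 CPM in treated beta cells, Hist1h1a stayed at or under 1.07 CPM and Hist1h1t at or under 1.98 CPM in each library.

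The question of IFNγ itself was put to each cell type. Of 57 genes, none was higher and 1 was lower in treated than in control alpha cells, where 0.94% of all genes were higher and 0.0346% lower. None was called in beta cells (1.06% of all genes higher, 0.00577% lower) or in delta cells (1.21% higher, 0.185% lower). At an unadjusted p under 0.05 there were 11, 1 and 13 histone genes in alpha, beta and delta cells (19.3, 1.75 and 22.8% of those tested, against 21.6, 4.26 and 11.7% of all genes), and DESeq2 called 1, 0 and 1. Direction was less even: the log2FC was below 0 for 52 of 57 genes in alpha cells (median -0.68, against -0.01 over all genes) and for 50 in delta cells (median -0.47, against -0.05), whereas 38 were above 0 in beta cells (median 0.18, against 0.00). Of the tested genes, 32 were below 0 in alpha and delta cells and above 0 in beta cells. No share of all genes with these signs, singly or together, is set beside these counts. Near-identical histone genes share reads, so the genes counted are not independent of each other. Whether this pattern of signs is particular to histone genes was not tested.

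The difference between these responses was tested as an interaction. Its median over the histone genes was -0.90 for alpha minus beta, -0.58 for delta minus beta and 0.04 for delta minus alpha cells. No histone gene passed, nor did any gene of the series (0% called in each direction), with 5, 7 and 1 histone genes at an unadjusted p under 0.05 (8.77, 12.3 and 1.75%, against 13.3, 4.74 and 4.52% of all genes), and DESeq2 called 0 histone genes in each. With GC offsets the medians were -0.33, -0.32 and -0.07. Without treated alpha library 2, the alpha minus beta interaction gave 1 histone gene higher and 5 lower of 59, and 674 genes higher and 701 lower of all 18038.

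Summed over the 66 genes, the level was 737 ± 32.9 CPM in treated and 956 ± 150 CPM in control delta cells, 648 ± 211 CPM in treated and 864 ± 151 CPM in control alpha cells, and 955 ± 49.98 CPM in treated and 851 ± 174 CPM in control beta cells (SD, n = 3 each). The 3 treated alpha libraries ran from 525 to 892 CPM, so the group overlapped its control. In delta cells the sums did not overlap, at 701 to 766 CPM in treated and 830 to 1122 CPM in control libraries, but as TPM they did, at 308 to 603 TPM in treated and 442 to 796 TPM in control libraries. In beta cells they overlapped.

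The GC balance of the libraries moved in part with these shifts: treated alpha libraries 1 and 3 and all treated delta libraries had relatively more counts in AT-rich genes. Delta control library 3 did as well, at 0.892, above each treated delta library. With GC offsets in the fit, the median was -0.30 in alpha, 0.07 in beta and -0.27 in delta cells, with 41, 24 and 41 of 57 genes below 0. These counts too have no share of all genes beside them. The part of the GC balance in the result was not tested. In alpha cells the shift also differed by date, with a median log2 difference of 0.19 on the first and -1.27 on the second date that held both treatments. Each of these is a difference of 2 single libraries, and the first uses treated alpha library 2. In beta cells it was 0.02 and -0.08. The alpha libraries with IFNγ were therefore not alike: without library 2, 1 histone gene was higher and 15 were lower of 59 (median -1.20), while 1798 of 18038 genes were higher and 1959 lower. The single call of the full fit was lost without any of 9 other libraries. In delta cells the median was -0.74 without control library 3.

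**Figure D3:**
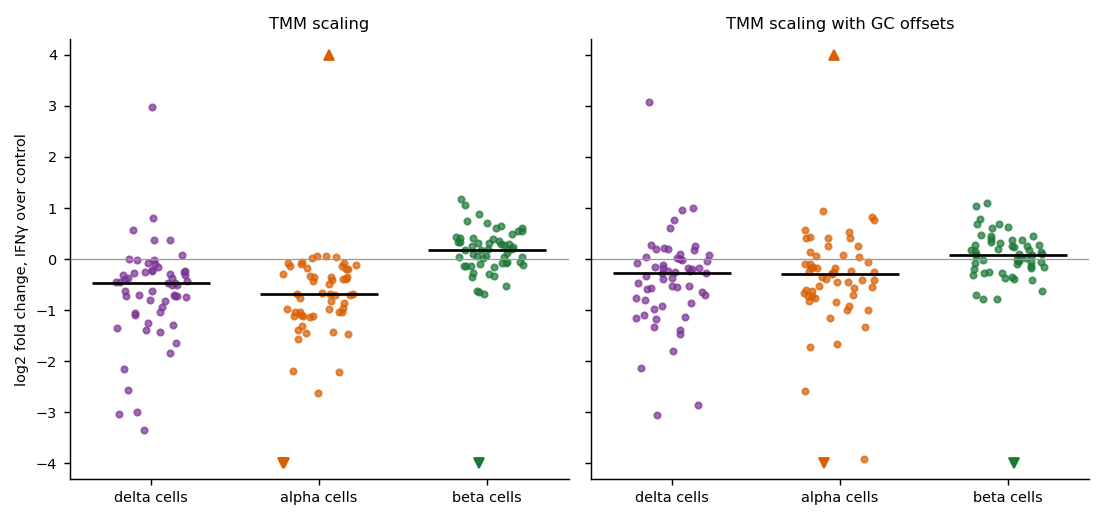
Log2 fold change with IFNγ of the 57 tested histone genes (points; triangles lie beyond 4 in size) in delta, alpha and beta cells, with the median as a line, under TMM scaling (left) and with GC offsets added (right). Medians of -0.47, -0.68 and 0.18 on the left become -0.27, -0.30 and 0.07 on the right.

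Genes were also grouped by annotated transcript end. In alpha cells the median log2 fold change with IFNγ was -1.04 for the 18 tested genes that end at the stem-loop. It was -0.45 for the 22 that run past it and -0.83 for the 17 with no annotated stem-loop. In delta cells it was -0.37, -0.54 and -0.79, and in beta cells 0.23, 0.09 and 0.18. Genes that end at the stem-loop are more GC-rich (median 60.5%, against 50.9% for those that run past it). With GC offsets the 3 groups had -0.32, -0.34 and -0.30 in alpha cells, -0.04, -0.50 and -0.27 in delta cells and 0.15, 0.02 and 0.07 in beta cells.

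Single genes showed where copies decide a value. The lower gene in treated alpha cells was Hist2h2aa2 (chr3:96239749-96240276), at 0, 0 and 0 CPM in treated cells, against 19.5, 6.69 and 6.09 CPM in control alpha cells. This is 0 against 241 counts, or at least 108-fold lower at a floor of 3 counts over the group (log2FC -9.54, adjusted p = 0.0454, lost in 13 of 28 alternatives). Its near-identical copy Hist2h2aa1 (chr3:96245497-96246082) encodes the same H2A and carries the same stem-loop and flanks, and Hist2h2aa2 was at 0 in 10 of the 18 libraries. Added together, the copies had 31.1, 84.8 and 25.5 CPM in treated alpha cells, against 64.2, 93.2 and 61.2 CPM in control alpha cells, which overlap. For this sum the log2FC was -0.63 (adjusted p = 0.372) in alpha, 0.06 (adjusted p = 1) in beta and -0.28 (adjusted p = 0.837) in delta cells. The same copy gave the lower calls of Hist2h2aa2 between control delta cells and control beta (at least 135-fold) or control alpha cells (at least 99.5-fold), and in treated delta and treated alpha cells against treated beta cells (at least 190-fold and 223-fold). Summed, treated alpha against treated beta cells gave -0.94 (adjusted p = 0.106).

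**Figure D4:**
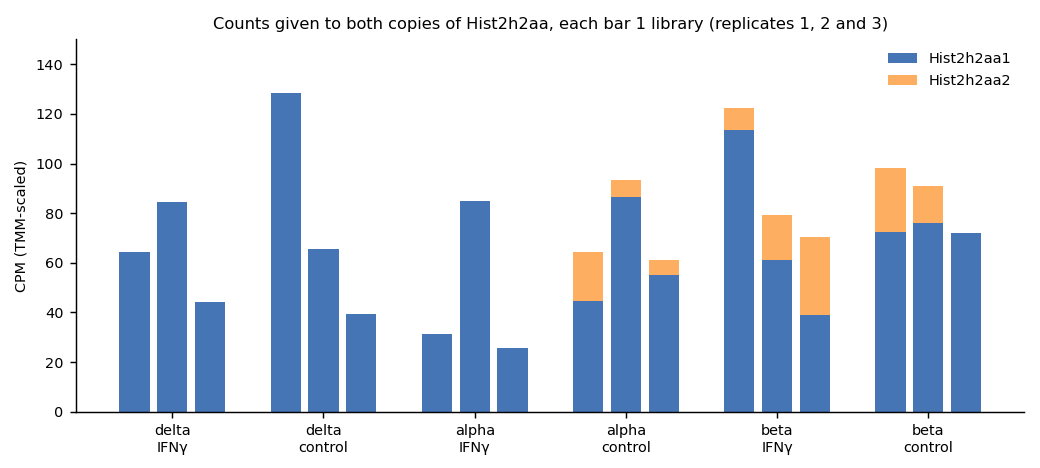
CPM given to Hist2h2aa1 (blue) and Hist2h2aa2 (orange), stacked, in each of the 18 libraries. Hist2h2aa2 is at 0 in all 6 delta and all 3 treated alpha libraries, while the stacked total of treated alpha cells (25.5 to 84.8 CPM) overlaps that of control alpha cells (61.2 to 93.2 CPM).

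Other extremes had the same limit. Hist2h3c1, an H3 gene near-identical to Hist2h3b and Hist2h3c2, had the highest fitted rise with IFNγ in alpha cells (8.36, 0 and 6.48 CPM in treated and 0, 0 and 0 CPM in control cells, adjusted p = 0.156) and the most negative fitted change in beta cells (0, 0 and 0 CPM in treated and 0, 0 and 8.06 CPM in control cells, adjusted p = 0.91). In delta cells Hist2h2ab, an H2A gene, came closest to a call, at 0, 0 and 0.41 CPM in treated cells, against 2.48, 2.05 and 0.934 CPM in control cells, which do not overlap (log2FC -3.34, adjusted p = 0.0512). It passed in DESeq2 (adjusted p = 0.0149) and without treated delta library 3 (0.00663) or delta control library 3 (0.0445). Hist4h4, the lone gene of the Hist4 cluster, had 1.90, 8.82 and 2.51 CPM in treated and 5.08, 8.56 and 7.27 CPM in control alpha cells, and Hist2h2be, an H2B gene, had 5.52, 9.83 and 8.32 CPM in treated and 8.86, 8.70 and 9.62 CPM in control alpha cells. Both overlap.

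Genes that act with the histone genes were read from lists. Of all genes, 21.6, 4.26 and 11.7% had an unadjusted p under 0.05 with IFNγ in alpha, beta and delta cells. The list counts below stand beside these shares. Of 38 tested genes of DNA replication and the cell cycle, 0 were higher and 4 lower in control alpha than in control beta cells. Of all genes, 9.56% were higher and 10.1% lower, so the lower count is near the share of all genes. The 4 list genes were Cenpf, Top2a, E2f1 and Mcm5. In treated alpha cells 2 were higher and 12 lower than in treated beta cells (median -1.25), and in treated delta cells 3 were higher and 17 lower (median -0.89), where 13.3 and 18% of all genes were lower. The proliferation marker Mki67 had 7.10, 4.84 and 0.819 CPM in treated delta cells, 1.72, 4.11 and 14.5 CPM in treated alpha cells and 26.1, 85.1 and 10.3 CPM in treated beta cells. Control cells had 0.573, 0 and 7.06 CPM of Mki67 in delta cells, 1.60, 13.5 and 1.5 CPM in alpha cells and 20.5, 96.2 and 6.24 CPM in beta cells. The topoisomerase gene Top2a was likewise highest in library 2 of treated and control beta cells, at 65.7 and 56.5 CPM. In the same libraries, Hist1h3c was at 8.30 and 12.4 CPM and the linker histone gene Hist1h1b at 5.10 and 7.73 CPM, the highest values of these genes in the treated and control beta groups. Not all histone genes shared this order. Hist1h3h (8.69 TPM, against 12.41 and 12.46) and Hist1h3e (21.1 TPM, against 29.39 and 32.8) were lowest in library 2 of treated beta cells, though highest in library 2 of control beta cells. A link of single histone genes to Mki67 was not tested. The sum of all 66 histone genes was highest in library 2 in control beta cells only. There it was 985 CPM, against 914 and 654 CPM in libraries 1 and 3. In treated beta cells library 2 had the lowest sum, at 911 CPM, against 1009 and 946 CPM in libraries 1 and 3. With IFNγ, the replication list had 0 calls in alpha and beta cells (5 and 0 at an unadjusted p under 0.05, 1 and 0 in DESeq2) and 1 in delta cells (Cdc45, log2FC -2.85, adjusted p = 0.037).

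**Figure D5:**
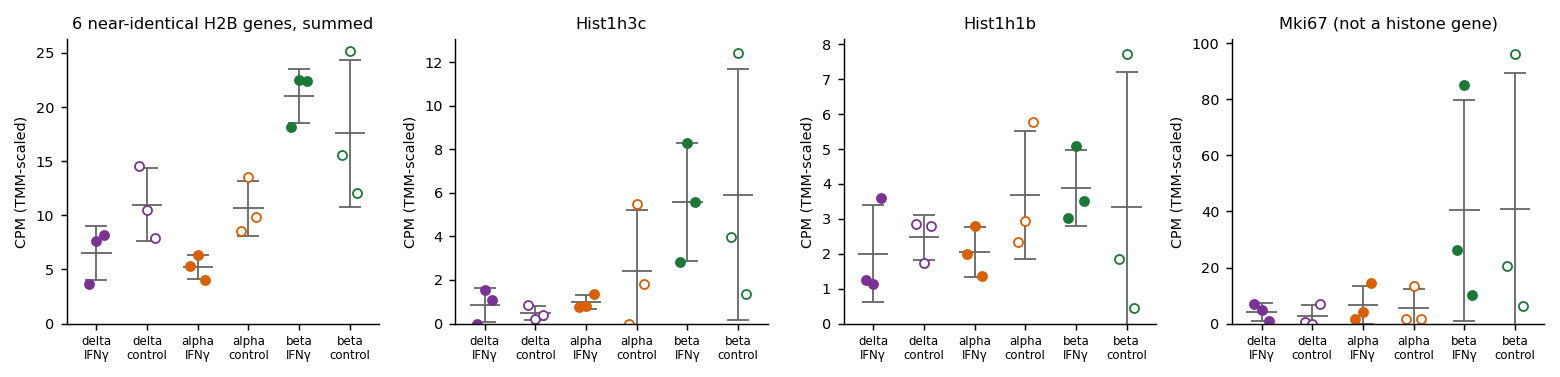
CPM per library of 6 near-identical H2B genes summed, of Hist1h3c and Hist1h1b, and of the proliferation marker Mki67, with 1 point per library, the mean (line) and SD (bar) over 3 libraries. Library 2 (middle point) of both beta groups has the highest Mki67, 85.1 CPM with IFNγ and 96.2 CPM without it.

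Replication-independent histone variants, which replace the core histones outside S phase, were also mostly lower among those called in treated delta cells. Of 12 tested, 2 were higher than in treated beta cells (H3f3b at 1.56 and H3f3a at 0.77 on the log2 scale, both coding for H3.3) and 5 lower (Cenpa, H2afj, H2afx, H2afy2 and H2afy), where 18.4% of all genes were higher and 18% lower. H3f3b had 603, 428 and 386 CPM in treated delta cells, against 149, 121 and 210 CPM in treated beta cells, which do not overlap. H2afz, an H2A variant, had 68.3, 52.2 and 119 CPM in treated delta cells, against 94.5, 123 and 79.6 CPM in treated beta cells, which overlap. In treated alpha against treated beta cells 1 variant was higher (H3f3a) and 1 lower (Cenpa), where 13.8% of all genes were higher and 13.3% lower. With IFNγ no variant was called in any cell type (median -0.23 in alpha, 0.01 in beta and -0.20 in delta cells), with 1, 0 and 2 at an unadjusted p under 0.05 and 0 in DESeq2. H1f0, the linker histone of resting cells, had 35.4, 65.9 and 49.0 CPM in treated and 67.1, 70.7 and 34.4 CPM in control alpha cells.

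The machinery of histone mRNA ends was measured as 21 genes. With IFNγ none was called (6, 0 and 2 at an unadjusted p under 0.05 in alpha, beta and delta cells, 0 in DESeq2), and the medians were -0.03, 0.01 and -0.11. In treated delta against treated beta cells 3 were higher and 5 lower of 21, where 18.4% of all genes were higher and 18% lower, among them Slbp, which binds the stem-loop (0.79), Casp8ap2 (1.01) and the U7 snRNP protein gene Lsm10 (-1.59). Slbp had 32.4, 20.9 and 36.2 CPM in treated delta cells, against 14.2, 20.3 and 17.3 CPM in treated beta cells. In controls the calls were Lsm11, a U7 snRNP protein gene, higher in alpha than in beta cells (1.44), and Upf1, lower in delta than in alpha cells (-0.77). Of all genes, 9.56% were higher in the first of these comparisons and 8.77% lower in the second. Of 21 histone chaperone and assembly genes, none was called with IFNγ (5, 1 and 3 at an unadjusted p under 0.05 in alpha, beta and delta cells, 0 in DESeq2). In treated alpha and treated delta against treated beta cells 3 and 2 of the 21 were higher and 1 and 5 lower (13.8 and 18.4% of all genes higher, 13.3 and 18% lower), with Asf1a, an H3-H4 chaperone, higher in both (1.27 and 1.37) and Chaf1b, a subunit of the CAF-1 assembly factor, lower in both (-1.80 and -1.61).

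Other RNAs without a poly(A) tail were compared because they share the capture of the libraries. Of 13 tested, none was called with IFNγ (medians -0.34 in alpha, 0.08 in beta and -0.05 in delta cells, with 0, 0 and 3 at an unadjusted p under 0.05 and 0 in DESeq2). The small nuclear RNA gene Rn7sk had 2237, 2394 and 4965 CPM in treated and 6329, 3243 and 2685 CPM in control delta cells, and 2203, 10739 and 3679 CPM in treated and 9051, 11454 and 5870 CPM in control alpha cells. The nuclear RNA gene Malat1 lay the other way without overlap, at 83451, 55002 and 46857 CPM in treated and 34867, 31068 and 38727 CPM in control delta cells (log2FC 0.82, adjusted p = 0.385), and 65670, 33040 and 39087 CPM in treated and 30955, 26780 and 26816 CPM in control alpha cells (log2FC 0.70, adjusted p = 0.253). For Rn7sk, treated alpha library 2 was again apart from libraries 1 and 3, as it was for Hist2h2aa1 at 84.8 CPM, against 31.1 and 25.5 CPM.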

How the data were processed

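Total RNA of sorted mouse islet cells was sequenced in 18 libraries (6 groups of 3, paired reads of 75 bases). Per the study's methods and the submitters' processing notes, the authors aligned reads to GRCm38 with STAR 2.5.2b and deposited, per gene and library, the expected counts of RSEM (version not given in the sources used here) and the TPM that RSEM derives from them and each gene's effective length. Expected counts were rounded and fitted with edgeR 4.0.16 (R 4.3.3, limma 3.58.1) by its quasi-likelihood F-test, in a single fit of 6 group means with TMM scaling and filterByExpr at a minimum count of 10. Adjusted p-values are Benjamini-Hochberg over 17338 genes, called at 0.05, and the common biological coefficient of variation was 0.294. CPM is TMM-scaled. Levels of different genes are compared as TPM only.

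Symbols, transcripts and coordinates came from GENCODE M21 (99.531% of gene IDs matched), and promoters from RefSeq. The study names release M23, and a gene model that differs between releases would move its group. The genes and lists were chosen with earlier results of these data known. Genes named are the 15 of highest mean TPM, up to 6 per direction and comparison past the threshold, the extremes with IFNγ, those at the count limit, and a set fixed by role or copy. Groups followed the sample labels. The alternatives were other size factors, no filter, DESeq2 1.42.0, a replicate block, GC and length offsets, date terms, summed copies, each library left out and, chosen after seeing the data, beta control library 3 and delta control library 3 left out together. The fit was tested on simulated data. No interval is given for counting error, which depth sets at low counts, and reads without molecular identifiers are not independent molecules.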

Additional observations from a re-analysis of the deposited data

How the results depend on the processing

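Counts of histone genes past the threshold changed with the processing. Counts of all genes can change with it too and are not given here, so the values below describe only the stability of calls. Without the low-count filter (66 genes tested), calls with IFNγ numbered 6 in alpha, 1 in beta and 4 in delta cells, in place of 1, 0 and 0. The interactions then gave 3 (alpha minus beta) and 2 (delta minus beta) calls in place of 0, control alpha against beta 7 in place of 4, control delta against alpha 12 in place of 7, treated alpha against beta 25 in place of 14 and treated delta against beta 31 in place of 18. The single call in alpha cells became 0 with the replicate block, GC offsets, replicate block with GC offsets, GC and length offsets, or near-identical genes summed. The IFNγ calls in delta cells became 1 with DESeq2, with GC and length offsets, and without beta control library 3 and delta control library 3 together. That last setting gave 4 calls for control delta against beta, in place of 8. With date as a fixed term, control alpha against beta gave 9 calls, and treated delta against beta and against alpha gave 0 and 0 in place of 18 and 7, where treated delta cells shared no date with treated beta cells and 1 with treated alpha cells. With near-identical genes summed, 5, 3 and 9 calls were left for control delta against beta, control delta against alpha and treated alpha against beta, out of fewer tested genes.

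Leaving out each replicate in turn gave 0 to 16 calls with IFNγ in alpha cells, 0 to 1 in delta cells, 0 to 6 for the alpha minus beta interaction, 2 to 5 for control alpha against beta, 5 to 10 for control delta against beta, 5 to 10 for control delta against alpha, 8 to 26 for treated alpha against beta, 10 to 24 for treated delta against beta and 3 to 8 for treated delta against alpha. On the TPM scale the log2 ratio of summed histone genes was -0.88 with IFNγ in alpha cells (-0.45 as CPM), -0.61 in delta cells (-0.36), 0.32 for control alpha against beta (0.03) and -0.26 for control delta against alpha (0.15). Date as a fixed term reversed Hist1h3h (0.67 for treated delta against alpha, 1.29 against beta) and Hist1h4i (0.55 for treated delta against beta), and the cause was not tested. Over all 1768 alternatives of 64 single-gene values, 59 of them past the threshold, 1520 kept their direction and their side of it, 236 fell short of it, 9 came to pass it and 3 reversed.

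Replicate numbers did not pair the libraries: deviations of same-numbered libraries correlated at a mean of 0.0216 over 45 pairs (-0.269 to 0.371), against 0.177 over 18 pairs of the same date. The replicate block changed 3 of 64 single-gene verdicts past or short of the threshold. Depth limited the rare copies: 9 of the 66 genes were too low to test.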
